A study of Mus musculus with 9 samples.

Results

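Fibronectin (Fn1) and 9 integrin chains were followed in mouse bone marrow (BM)-derived macrophages (Mϕs) that had been exposed to IL-4, to IL-6 or to neither. The 10 genes were chosen by name, as the rows of the deposited table whose gene identifiers belong to Fn1, Itga4, Itga5, Itgav, Itgal, Itgam, Itgax, Itgb1, Itgb2 and Itgb5. This rule uses no expression value, but the genes were chosen with earlier results of these data known. The table holds 53379 genes, 26 of them integrin chains, and all 10 genes chosen were among the 12824 that passed a filter of a mean of at least 0.5 FPKM (fragments per kilobase of exon per 1000000 fragments).

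BM cells came from wild-type C57BL/6 mice and were grown with 10 ng/ml MCSF (CSF-1), the growth factor that drives BM cells to become Mϕs, for 3 days. They were then kept for 4 days with 10 ng/ml MCSF alone (Control), with MCSF and 10 ng/ml IL-4, or with MCSF and 100 ng/ml IL-6, so that MCSF was shared by every group. Each group has 3 libraries (#1, #2 and #3), made from messenger RNA. The column headers repeat these numbers after the letter m in each group, without saying what they mark. The legends of the study give n = 3 mice, and whether the groups share mice is not stated. These doses and days are those of the labels. The methods of the study give 100 ng/ml for IL-4 as well as for IL-6, and its legends give another dose and time.

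Integrins are adhesion receptors made of 1 alpha and 1 beta chain, and the pair decides which ligand is bound. Fibronectin is a large secreted glycoprotein that cells assemble into fibrils, and its main receptor is the pair of Itga5 and Itgb1. Itga4 with Itgb1 also binds fibronectin and the endothelial protein Vcam1, and Itgav with Itgb5 binds vitronectin. The beta-2 chain Itgb2 is confined to leukocytes, where it pairs with Itgal (LFA-1), Itgam (Mac-1 or CD11b) or Itgax (CD11c) to bind Icam proteins, complement fragments and fibrinogen.

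Itgal, Itgam and Itgax lie on the same strand of mouse chromosome 7 (GRCm38). Itgal spans chr7:127296260-127335138, Itgam chr7:128062640-128118491 and Itgax chr7:128129547-128150657. Itgam ends 11055 bases before Itgax starts, and Itgal ends 727501 bases before Itgam. The 250 bases upstream of the RefSeq start are shown for Itgam and Itgax because these neighbours, both partners of Itgb2, differed in how their RNA stood in IL-6-treated Mϕs. They read 5′ to 3′ on the plus strand, from chr7:128062390-128062639 and chr7:128129300-128129549 of GRCm38.p6. Capitals mark matches to GAGGAA, the core bound by PU.1 and other ETS factors, in Itgam, and in Itgax a STAT site with a 4-base spacer (TTC and GAA around any 4 bases), the spacing that STAT6 prefers.
Itgam: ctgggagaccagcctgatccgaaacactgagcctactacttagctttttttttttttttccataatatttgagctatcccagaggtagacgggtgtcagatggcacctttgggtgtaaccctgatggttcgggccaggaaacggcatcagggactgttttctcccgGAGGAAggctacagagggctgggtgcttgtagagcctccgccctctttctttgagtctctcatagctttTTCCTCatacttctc
Itgax: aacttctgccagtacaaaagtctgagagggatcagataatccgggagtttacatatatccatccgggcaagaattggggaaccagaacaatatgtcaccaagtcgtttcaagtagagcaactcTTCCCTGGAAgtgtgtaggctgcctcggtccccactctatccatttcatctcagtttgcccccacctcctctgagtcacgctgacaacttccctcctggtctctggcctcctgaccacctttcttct

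RefSeq windows of this length were at hand for 7 of the 10 genes (Itga4, Itga5, Itgav, Itgam, Itgax, Itgb1 and Itgb5), and both strands were searched. The STAT site with a 4-base spacer was found in 1 of the 7, Itgax, from 127 to 118 bases before the start, and in 5.89% of all 32544 windows. The AP-1 letters TGANTCA were also found in Itgax alone, from 56 to 50 bases before the start, against 6.73% of all windows. GAGGAA was found in 4 of the 7 (Itga5, Itgav, Itgam and Itgb1) against 23.4% of all windows. TTCNNNGAA, the spacing other STAT factors prefer, was in none of the 7 and in 7.04% of all windows. The SP1 letters GGGCGG were in Itga4, Itga5, Itgam, Itgb1 and Itgb5 (33.0% of all windows), and the C/EBP letters TTNNGNAA in Itga5, Itgam and Itgax (36.8%). None of these motifs overlap each other in the Itgax window.

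The libraries rest on 29988160 to 39909571 fragments, read back from the steps of the FPKM values, and the lowest value of any of the 10 genes rests on 306 fragments (Fn1 in Control #2). All 7 macrophage markers, Adgre1 (F4/80), Csf1r and Lyz2 among them, were detected in every library. All 7 were lower in each IL-4 library than in any Control library, and the part of this shift in the IL-4 results was not tested. With IL-6, 2 of the 7 were above and 1 was below all Control libraries. The sums were 16627 to 18932 FPKM in Control, 5949 to 7025 FPKM in IL-4 and 20294 to 21399 FPKM in IL-6 libraries. Lyz2 made up most of each sum. In RNA from whole cultures, fewer cells of a type and less RNA per cell cannot be told apart. IL-4 and IL-6 each left a trace of their own, since Arg1 was 730.3 to 1227 FPKM with IL-4 and at most 5.33 FPKM in the other libraries, and Socs3 was 74.7 to 85.5 FPKM with IL-6 and at most 3.23 FPKM in the others. A pair of divisions of the libraries bear on the results. Fragments of 14 intestinal Paneth and goblet cell genes were at 28.6 to 41.6 per 1000000 fragments in the Control libraries and IL-4 #1 (set A) and at 0.0990 to 0.229 per 1000000 in IL-4 #2, IL-4 #3 and the IL-6 libraries (set B), so IL-6 and Control cannot be told apart from the sets. IL-4 #3 stood apart by gene length: its median log2 level of the 1000 genes of at least 10000 exonic bases lay 1.39 below that of the 3218 genes under 2000 bases, against -0.48 to 0.60 for long minus short genes in the other libraries. Results were therefore also fitted without IL-4 #3 and with the set fitted, a fit in which only IL-4 #1 against IL-4 #2 and #3 separates set from treatment.

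Fn1 had the lowest mean FPKM of the 10 RNAs in Control Mϕs and the third highest with IL-4. Fn1 (chr1:71585520-71653200, minus strand) was 1.25, 0.873 and 1.12 FPKM in the Control libraries, 207, 255 and 85.9 FPKM in the IL-4 libraries, and 6.65, 6.65 and 8.37 FPKM in the IL-6 libraries. The 3 groups did not overlap. The mean with IL-4 was 183 ± 87.0 FPKM (SD, n = 3), 169-fold the Control mean of 1.08 ± 0.191 FPKM, and the mean with IL-6 was 7.23 ± 0.994 FPKM, 6.68-fold that of Control. Fn1 rose with IL-4 (log2 fold change, log2FC, 7.14, SE 0.37, limma adjusted p = 9.2e-06) and with IL-6 (log2FC 2.64, SE 0.37, adjusted p = 0.0041).

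The IL-4 result held within set A, where IL-4 #1 was 191-fold the Control mean. With IL-6, which lies wholly in set B, the log2FC was 3.12 with the set fitted and was no longer called (adjusted p = 0.082). Within set B, Fn1 with IL-6 was 4.24% of its mean in IL-4 #2 and #3. The same share was 0.380% for Arg1, 0.142% for Retnla and 3.92% for Chil3. Their Control means were 0.577, 4.56 and 335 FPKM in this order, against 1.08 FPKM for Fn1. The 8 fibroblast and stromal markers, whose cells are known for fibronectin, summed to 0.362 to 0.879 FPKM in Control, 0.312 to 0.539 FPKM in IL-4 and 0.609 to 0.728 FPKM in IL-6 libraries. Col1a1 did not exceed 0.340 FPKM in any library, and Lum was at 0 in all IL-6 libraries. Pdgfrb was 0.0416 to 0.162 FPKM in Control, 0.128 to 0.166 FPKM in IL-4 and 0.106 to 0.202 FPKM in IL-6 libraries. The part of such cells in the Fn1 values was not tested.

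**Figure D1:**
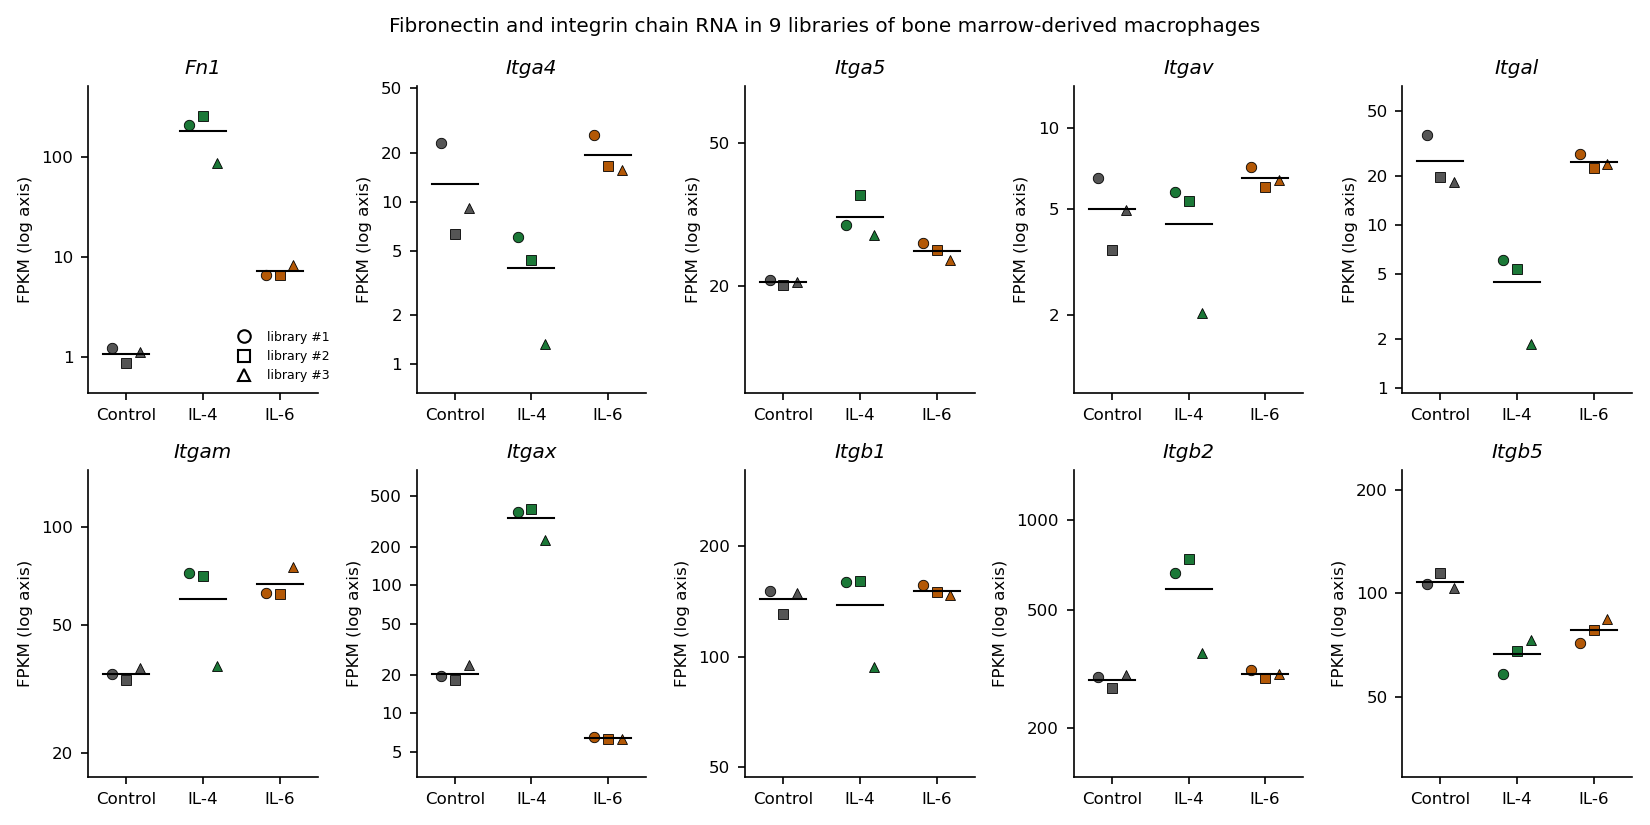
FPKM of Fn1 and the 9 integrin chains in the 9 libraries (log axes that differ between panels, symbols mark libraries #1 to #3, lines are group means, n = 3). Fn1 and Itgax stand between 85.9 and 399 FPKM in the IL-4 libraries against at most 23.8 FPKM elsewhere, while Itgb1 stays between 93.8 and 161 FPKM throughout.

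The chain RNAs of the fibronectin receptor pair were not called with either cytokine. Itga5 (chr15:103344286-103366763) was 20.8, 20.2 and 20.6 FPKM in Control, 29.6, 35.9 and 27.7 FPKM in IL-4 and 26.3, 25.2 and 23.7 FPKM in IL-6 libraries. Both treated groups lay above Control without overlap. The log2FC was 0.59 with IL-4 (SE 0.12, adjusted p = 0.0089) and 0.29 with IL-6 (SE 0.12, adjusted p = 0.22), both under the log2FC of 1 set for a call.

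Itgb1 (chr8:128685654-128733200), the beta chain shared by most matrix receptors, was 151, 130.6 and 149 FPKM in Control libraries. It was 160.1, 161 and 93.8 FPKM with IL-4 and 157, 150.3 and 147 FPKM with IL-6, and all groups overlapped. The log2 difference from Control was -0.09 with IL-4 (95% confidence interval -0.57 to 0.38, adjusted p = 0.77) and 0.08 with IL-6 (-0.40 to 0.56, adjusted p = 0.86). The Fn1/Itgb1 ratio within a library thus went from 0.00669 to 0.00826 in Control to 0.916 to 1.58 in IL-4 and 0.0424 to 0.0569 in IL-6 libraries. These groups did not overlap, and the 2-sided exact permutation test gave p = 0.1 for each pair of groups, the smallest that 3 libraries against 3 allow.

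Itga4 (chr2:79255426-79333123), the chain that binds fibronectin and Vcam1, was the least even of the 10 genes within a group. It was 23.1, 6.38 and 9.11 FPKM in Control, 6.07, 4.38 and 1.33 FPKM in IL-4 and 25.8, 16.5 and 15.6 FPKM in IL-6 libraries. The IL-4 libraries were below all others, and the Control and IL-6 libraries overlapped. Itga4 was higher with IL-6 than with IL-4 by a log2FC of 2.47 (SE 0.62, adjusted p = 0.017), but this was not called without IL-6 #1 (2.25, adjusted p = 0.064).

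Against Control, Itga4 had a log2FC of -1.71 with IL-4 (SE 0.62, adjusted p = 0.079). It was called after length and GC trends had been taken out of each library (-1.55, adjusted p = 0.011) and without IL-4 #1 (-2.14, adjusted p = 0.046). With the set fitted it was -0.85 (adjusted p = 0.64), and without IL-4 #3 it was -1.08 (adjusted p = 0.13). The exons of Itga4 cover 13978 bases, the longest of the 10 genes, and the order of its Control values, #1 over #3 over #2, is that of the long minus short medians of these libraries (0.44, -0.07 and -0.48). The share of length in the Itga4 values was not tested beyond that fit. The Itga5/Itga4 ratio was 4.88, 8.19 and 20.9 in the IL-4 libraries and 0.902 to 3.17 in the others, again without overlap (exact permutation p = 0.1 against each group).

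Itgav and Itgb5, the chains of a vitronectin receptor, were not called in any of the 3 comparisons. Itgav (chr2:83724397-83806916) was 6.48, 3.50 and 4.94 FPKM in Control, 5.77, 5.35 and 2.05 FPKM in IL-4 and 7.16, 6.02 and 6.39 FPKM in IL-6 libraries. Its Control group overlapped both treated groups, and the log2 difference was -0.27 (95% confidence interval -1.16 to 0.63) with IL-4 and 0.42 (-0.47 to 1.32) with IL-6, neither of them called. With the set fitted the IL-4 value was 0.25 (adjusted p = 0.86). All IL-6 libraries lay above all IL-4 libraries, by 0.69 on the log2 scale (adjusted p = 0.19). Itgb5 (chr16:33829665-33949338) was 106, 114 and 104 FPKM in Control, 58.3, 67.8 and 73.3 FPKM in IL-4 and 71.7, 78.4 and 84.0 FPKM in IL-6 libraries.

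Itgb5 was thus lower in all 6 treated libraries than in any Control library, by amounts too small for a call. Its log2FC was -0.71 with IL-4 (SE 0.12, adjusted p = 0.0041) and -0.47 with IL-6 (SE 0.12, adjusted p = 0.053), and the treated groups overlapped each other. With the set as a term the values were -0.89 (adjusted p = 0.011) and -0.74 (adjusted p = 0.13). The Itgav/Itgb5 ratio was at most 0.0998, so Itgb5 RNA exceeded Itgav RNA in every library per length.

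Itgax, which encodes CD11c, a marker of dendritic cells and tissue Mϕs, went in opposite directions with the cytokines. It was 19.6, 18.1 and 23.8 FPKM in Control, 374, 399 and 228 FPKM in IL-4 and 6.51, 6.37 and 6.33 FPKM in IL-6 libraries. No group overlapped another, and the IL-6 libraries lay within 1.03-fold of each other. Itgax rose with IL-4 by a log2FC of 3.99 (SE 0.21, adjusted p = 1.1e-05) and fell with IL-6 by 1.65 on the log2 scale (SE 0.21, adjusted p = 0.0029).

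The mean with IL-4 was 16.3-fold and the mean with IL-6 31.3% of the Control mean. IL-4 #1 alone, in the same set as Control, was 18.3-fold. With the set as a term the IL-6 difference from Control was -1.34 and was not called (adjusted p = 0.15), while IL-6 against IL-4 gave -5.64 (adjusted p = 1.5e-06) and -5.54 with it (adjusted p = 1.2e-05). Of the 50-base stretches of Itgax exons, 8.02% also occur in Itgad, the next gene along the chromosome, which had at most 3.02 FPKM in any library. The 7 dendritic cell markers summed to 5.58 to 7.05 FPKM in Control, 2.85 to 3.34 FPKM in IL-4 and 4.19 to 7.51 FPKM in IL-6 libraries. Siglech, the largest part of the Control sums, was 3.10 to 3.47 FPKM in Control and 0.578 to 1.16 FPKM in IL-4 libraries. Flt3, Dpp4 and Cd209a were also lower with IL-4, while Ccr7 overlapped between these groups. Xcr1 was higher with IL-4, at 0.0450 to 0.0526 FPKM against 0.00749 to 0.0320 FPKM in Control. Zbtb46, a transcription factor of conventional dendritic cells, was 0.0737 to 0.0901 FPKM in Control, 0.297 to 0.465 FPKM in IL-4 and 0.128 to 0.168 FPKM in IL-6 libraries, and the part of such cells in the Itgax values was not tested.

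Itgam, the CD11b chain, was 35.2, 33.7 and 36.8 FPKM in Control, 72.3, 70.7 and 37.2 FPKM in IL-4 and 62.4, 62.3 and 75.1 FPKM in IL-6 libraries. Both treated groups lay above Control, although IL-4 #3 did so by less than 1 FPKM. The log2FC was 0.71 with IL-4 (SE 0.24, adjusted p = 0.070) and 0.91 with IL-6 (SE 0.24, adjusted p = 0.061), and neither was called. Without IL-4 #3 the value with IL-4 was 1.02 and was called (adjusted p = 0.00019), while with the set fitted it was 1.04 and was not (adjusted p = 0.091). Of the 50-base stretches of Itgam exons, 66.3% also belong to Gm49368, a gene annotated over it on the same strand with a mean of at most 1.06 FPKM in a group, so the Itgam level is uncertain.

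The 10 neutrophil and granulocyte precursor markers, cells that also carry Itgam, summed to 4751 to 8481 FPKM in Control, 2146 to 3987 FPKM in IL-4 and 7913 to 11002 FPKM in IL-6 libraries, with all 10 detected in every group. The part of these cells in the Itgam values was not tested.

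Itgal, the LFA-1 chain, was 35.4, 19.7 and 18.2 FPKM in Control, 6.10, 5.39 and 1.87 FPKM in IL-4 and 27.0, 22.3 and 23.7 FPKM in IL-6 libraries. It fell with IL-4, by 2.53 on the log2 scale (SE 0.44, adjusted p = 0.0042), and stood at 18.2% of the Control mean. The IL-6 libraries lay inside the range of the Control libraries, with a log2 difference of 0.05 (95% confidence interval -0.95 to 1.06, adjusted p = 0.96). With the set as a term the IL-4 value was -1.92 and no longer called (adjusted p = 0.081), and IL-4 #1 in set A was at 0.250 of the Control mean. Among markers of other leukocytes, the neutrophil sums given above were lower in all IL-4 than in all Control libraries. The B cell markers summed to 26.8 to 49.7 FPKM in Control and 21.7 to 30.6 FPKM in IL-4 libraries. The T cell markers summed to 0.266 to 0.427 FPKM and 1.07 to 2.01 FPKM. The part of such cells in the Itgal values was not tested.

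Itgb2 (chr10:77530252-77565708), the beta chain that Itgal, Itgam and Itgax share, was the most abundant of the 10 RNAs in every group. It was 296, 271 and 301 FPKM in Control, 664, 739.6 and 358 FPKM in IL-4 and 313, 295 and 303 FPKM in IL-6 libraries. All IL-4 libraries lay above all others, and the Control and IL-6 libraries overlapped. The log2FC with IL-4 was 0.95 (SE 0.25, adjusted p = 0.025), just under the size for a call. It was 1.28 without IL-4 #3 (adjusted p = 4.0e-05) and 1.16 with libraries scaled by their median ratio (adjusted p = 0.0027), and was called in both. It was not called with the set fitted (1.20, adjusted p = 0.076) or after quantile normalization (0.68, adjusted p = 0.25). With IL-6 it was 0.07 (95% confidence interval -0.50 to 0.64).

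Of the 10 genes, 3 were called with IL-4 against Control (Fn1 and Itgax higher, Itgal lower), where 13.9% of the genes tested were called, 5.02% higher and 8.89% lower. Median-ratio scaling of the libraries turned these 644 higher and 1140 lower genes into 838 and 868. Without IL-4 #3 there were 5, with Itgam and Itgb2 added, and with the set fitted there were 2, with Itgal lost. With IL-6, 2 were called (Fn1 higher, Itgax lower) against 5.38% of the genes tested, 3.49% higher and 1.89% lower, and none with the set fitted. Between IL-6 and IL-4, 4 were called (Itga4 and Itgal higher with IL-6, Fn1 and Itgax lower) against 20.4% of the genes tested, 13.6% higher and 6.82% lower, and the number was also 4 with the set fitted. The same scaling turned these 1738 higher and 875 lower genes into 1341 and 1224. Groups did not overlap for 8 of the 10 with IL-4 (40.3% of the genes tested), for 5 with IL-6 (43.2%) and for 7 between the cytokines (56.9%). Both contrasts with Control share the Control libraries. The median log2 difference of all genes tested was -0.20 in the IL-4 contrast, -0.00 in the IL-6 contrast and 0.22 where IL-6 was set against IL-4, and over the 10 genes these medians were 0.25, 0.18 and 0.19.

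**Figure D2:**
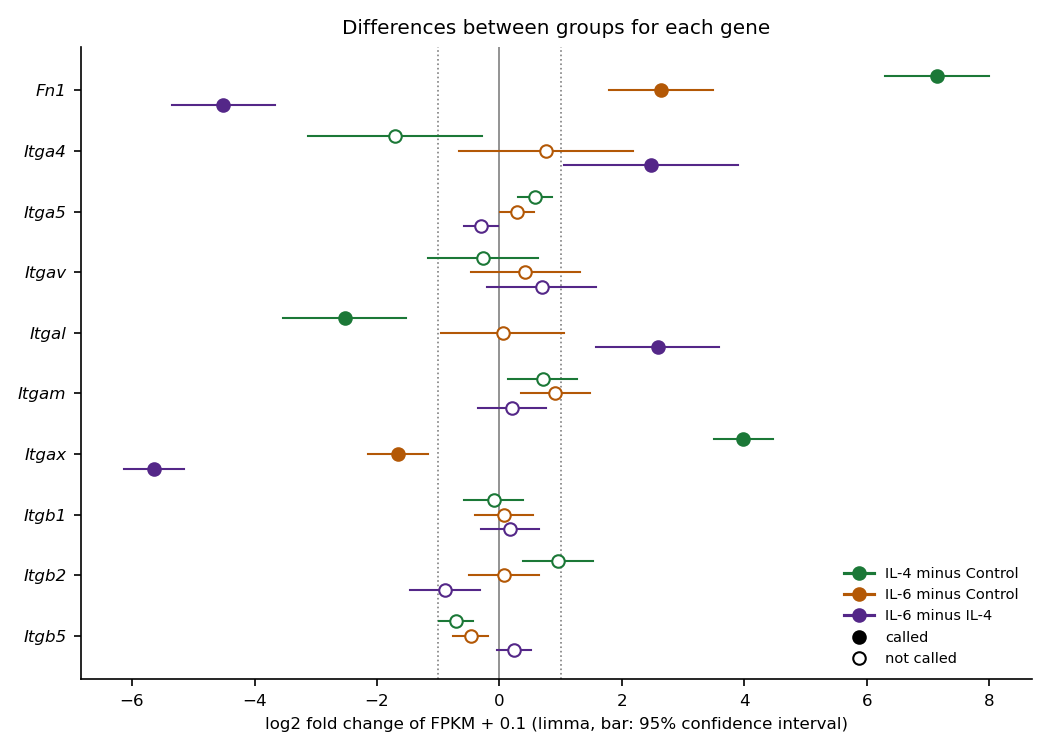
Log2 fold change of FPKM + 0.1 for each gene in the 3 comparisons (limma, points with 95% confidence intervals, n = 3 libraries a group). Filled points passed both limits of a call, an adjusted p below 0.05 and a log2FC beyond the dotted lines at 1 in either direction, and the widest intervals, such as -3.13 to -0.29 for Itga4 with IL-4, belong to genes that vary within a group.

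The order of the levels also differed between the groups. In Control Mϕs it ran Itgb2, Itgb1, Itgb5, Itgam, Itgal, Itga5, Itgax, Itga4, Itgav and Fn1, with no overlap among the first 4 or between Itgav and Fn1, and overlap between each gene and the next from Itgam to Itgav. With IL-4 the order ran Itgb2, Itgax, Fn1, Itgb1, Itgb5, Itgam, Itga5, Itgal, Itgav and Itga4, and the ranges of the first 4 overlapped from each to the next. With IL-6 Itgax came last, at 6.40 ± 0.0949 FPKM, in a range that overlapped Itgav above it.

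The partners of Itgb2 changed their proportions at the RNA level. Of the summed FPKM of Itgal, Itgam, Itgax and Itgad, Itgax made up 21.5%, 24.3% and 29.3% in the Control libraries, 82.6%, 83.8% and 85.3% in the IL-4 libraries and 6.78%, 6.87% and 5.93% in the IL-6 libraries. Itgam made up 38.7% to 45.4%, 13.9% to 16.0% and 64.9% to 70.4%, and Itgal 22.5% to 38.9%, 0.697% to 1.35% and 22.2% to 28.1%, in the same order of groups. IL-4 #3 thus sat close to the other IL-4 libraries in these shares. The summed FPKM of the 4 partners was 82.2 ± 8.23 in Control libraries, 399 ± 114 in IL-4 libraries and 98.5 ± 7.31 in IL-6 libraries (SD, n = 3), below the FPKM of Itgb2 itself in each group.

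Among the alpha chains that can pair with Itgb1, Itga5 made up 57.1%, 61.7% and 76.5% of the summed FPKM in the IL-4 libraries, against 24.6% to 39.5% in Control and 25.8% to 27.2% in IL-6 libraries. Itga6, a laminin receptor chain, made up 12.7% to 19.8% with IL-4, against 35.6% to 36.9% in Control and 34.1% to 39.0% with IL-6. Itga4 ranged from 12.5% to 27.3% in Control, from 3.66% to 11.7% in IL-4 and from 17.3% to 25.3% in IL-6 libraries. The higher Itga5 share went with a 1.51-fold higher mean of Itga5 itself, beside the lower Itga4 and Itga6 values.

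**Figure D3:**
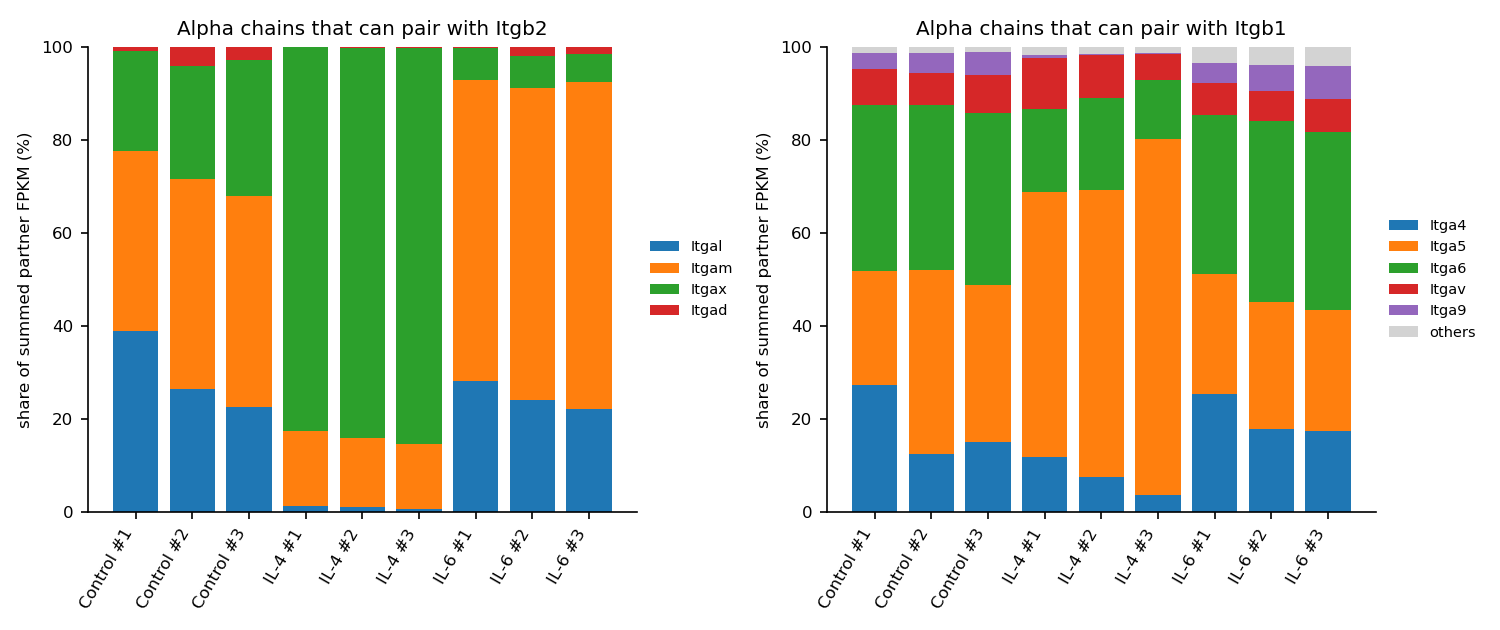
Share of each alpha chain in the summed FPKM of the chains that can pair with Itgb2 (left) and with Itgb1 (right), one bar per library. Itgax takes 82.6% to 85.3% of the Itgb2 partners in the IL-4 libraries and 5.93% to 6.87% in the IL-6 libraries, and Itga5 takes 57.1% to 76.5% of the Itgb1 partners with IL-4.

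Ratios within a library do not depend on how libraries are scaled to each other, but they keep any trend with gene length. Itgax/Itgam was 0.538 to 0.646 in Control, 5.17 to 6.13 in IL-4 and 0.0844 to 0.104 in IL-6 libraries, so that the neighbouring genes shown above changed their relation in both directions. Itgam/Itgal was 0.997 to 2.02 in Control, 11.9 to 19.96 in IL-4 and 2.31 to 3.17 in IL-6 libraries. Itgb1/Itgb2 was 0.481 to 0.509 in Control, 0.218 to 0.262 in IL-4 and 0.485 to 0.510 in IL-6 libraries, and Itgam/Itgb2 was 0.119 to 0.124, 0.0955 to 0.109 and 0.199 to 0.247.

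Groups did not overlap in 17 of the 21 comparisons made of 7 ratios, each with p = 0.1 in the 2-sided exact permutation test, the smallest possible, and 0.12 after Benjamini-Hochberg adjustment. This test could not bring any of them under 0.05 with 3 libraries a group, and no other test of the ratios was made. Overlap remained in Itgb1/Itgb2 between IL-6 and Control (log2 difference 0.01, SE 0.03) and in Itga5/Itga4 between IL-6 and Control (-0.48, SE 0.57). It also remained in 2 of the 3 comparisons of Itgav/Itgb5.

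**Figure D4:**
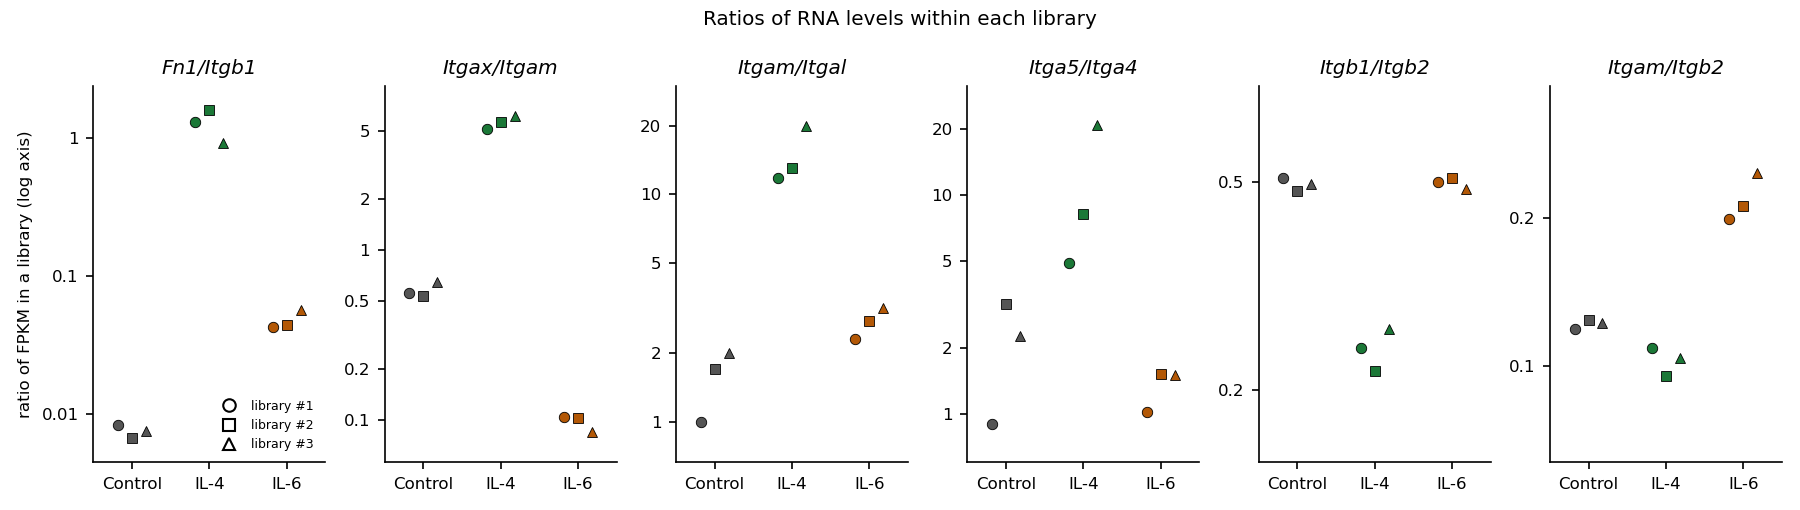
Ratio of FPKM between pairs of genes within each library (log axes that differ between panels, symbols mark libraries #1 to #3). Itgax/Itgam is 5.17 to 6.13 in the IL-4 libraries and 0.0844 to 0.104 in the IL-6 libraries on either side of Control, and Itgb1/Itgb2 is lower in the IL-4 libraries (0.218 to 0.262) than in the others.

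Of the 17 other integrin chains, 8 passed the filter. With IL-4, 1 rose and 2 fell, where 5.02% of the genes tested were called higher and 8.89% lower. Itga9, a chain that binds tenascin, osteopontin and Vcam1, fell from 2.93, 2.17 and 2.98 FPKM to 0.281, 0.232 and 0.0749 FPKM (log2FC -3.30, adjusted p = 0.00021). Itga6 fell by 1.54 on the log2 scale (adjusted p = 0.010). Itgb7, an extra gene chosen after its values were seen, was the chain that rose (1.30, adjusted p = 0.0076), from 5.42 to 5.70 FPKM to 10.4, 11.4 and 22.2 FPKM. Once the set was fitted, Itga6 and Itgb7 were no longer called with IL-4 (both adjusted p = 0.13). Of the basophil, eosinophil and mast cell markers, Mcpt8, Cpa3, Prss34 and Ms4a2 were higher with IL-4 without overlap, and Prg2 and Epx were lower. Mcpt8 was 1.69 to 5.03 FPKM in Control and 13.4 to 24.4 FPKM in IL-4 libraries, and Prg2 65.1 to 154 FPKM and 12.5 to 16.4 FPKM. The part of such cells in the Itgb7 values was not tested.

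With IL-6, 5 of the 8 rose (Itga1, Itga2, Itga2b, Itgb3 and Itgb7) and none fell. Of the genes tested, 3.49% were called higher and 1.89% lower. The median log2FC over the 8 was 1.40, against -0.53 with IL-4. Itga1 and Itga2 passed the filter only through the IL-6 libraries, with means of 1.88 and 1.12 FPKM there. Their means were 0.0665 and 0.271 FPKM in Control and 0.302 and 0.163 FPKM in IL-4 libraries. The filter thus favoured their entry as rises, and both the 5 of 8 and the median of 1.40 include them. Itga2 and Itgb7 were called in 2 and 3 of the 9 fits that leave out 1 library, and with the set fitted only Itga1 of the 5 was called. Itga1, a collagen receptor chain, was 0.0490 to 0.1001 FPKM in Control and 2.03, 1.65 and 1.98 FPKM in IL-6 libraries (3.58, adjusted p = 0.0015, and 0.023 with the set fitted). Itgb3 was 9.44 to 10.9 FPKM in Control, 14.5 to 23.5 FPKM in IL-4 and 24.9 to 39.5 FPKM in IL-6 libraries, with a log2FC of 1.66 with IL-6 (adjusted p = 0.0040, and 0.080 with the set fitted). Its platelet partner Itga2b was 6.69 to 11.3 FPKM in Control and 19.2 to 39.8 FPKM in IL-6 libraries (1.70, adjusted p = 0.0098, and 0.24 with the set fitted).

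The 4 megakaryocyte and platelet markers were higher with IL-6, as Itga2b and Itgb3 were, and their sum was lower with IL-4, where Itgb3 was above Control. They summed to 311 to 478 FPKM in Control, 141 to 221 FPKM in IL-4 and 1213 to 2460 FPKM in IL-6 libraries, with Pf4 at 999.9 to 2042 FPKM and the platelet receptor chain Gp9 at 12.7 to 26.8 FPKM with IL-6. All 4 were detected in each library, and their part in the Itga2b and Itgb3 values was not tested.

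Secreted ligands of integrins other than fibronectin showed another pattern. Of 20 listed, 7 passed the filter. Over all genes tested, 5.02% were called higher and 8.89% lower with IL-4, and 3.49% higher and 1.89% lower with IL-6. With IL-4, Spp1 (osteopontin) and Thbs1 (thrombospondin) fell and Vwf rose, while with IL-6 Spp1, Thbs1, C3, Tgfbi and Lamc1 rose and none fell, and the median log2FC over the 7 was -0.08 and 1.97. Thbs1 was 206, 111 and 128 FPKM in Control, 34.8, 39.7 and 10.9 FPKM in IL-4 and 1032, 939.5 and 1048 FPKM in IL-6 libraries, a log2FC of -2.53 for IL-4 (adjusted p = 0.0056, or 0.097 once the set was fitted) and 2.81 with IL-6 (adjusted p = 0.0087, and 0.099 with the set fitted). Spp1 was 623 to 839.8 FPKM in Control, 96.7 to 142 FPKM in IL-4 and 2473 to 3190 FPKM in IL-6 libraries (-2.69, adjusted p = 4.0e-05, and 1.90, adjusted p = 0.00078, and 0.066 with the set fitted).

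The mean of Fn1 was thus above those of Spp1 and Thbs1 with IL-4, where the ranges of Fn1 and Spp1 overlapped, and far below both with IL-6. C3, the complement component whose fragment is bound by Itgam and Itgax with Itgb2, was 34.7 to 39.3 FPKM in Control and 181 to 189 FPKM in IL-6 libraries (2.32, adjusted p = 0.0073, and 0.024 with the set fitted). Tgfbi was 21.1 to 24.6 FPKM in Control and 91.8 to 95.5 FPKM with IL-6 (2.05, adjusted p = 0.00022, and 0.024 once the set was fitted). Lamc1, a laminin chain, rose by 1.97 (adjusted p = 0.035), in 3 of the 9 fits that leave out 1 library and not with the set fitted (adjusted p = 0.14).

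Of 9 listed surface ligands, 5 passed the filter. The shares called over all genes tested were 13.9% with IL-4 and 5.38% with IL-6. With IL-4, Cdh1 (E-cadherin) and Icam2 (adjusted p = 0.0075, and 0.088 with the set fitted) rose and Vcam1, Icam1 and F11r fell, with a median log2FC of -1.20 over the 5. Vcam1, the ligand of Itga4, was 5.64, 18.1 and 15.2 FPKM in Control and 1.60, 2.66 and 0.989 FPKM in IL-4 libraries (-2.76, adjusted p = 0.0070, and 0.073 with the set fitted). Icam1, the ligand of Itgal and Itgam, was 16.1 to 21.7 FPKM in Control, 10.6, 6.91 and 2.52 FPKM in IL-4 and 49.4 to 62.6 FPKM in IL-6 libraries. Its fall with IL-4 (-1.63, adjusted p = 0.031) was called in 2 of the 9 fits that leave out 1 library and not with the set fitted (-0.75, adjusted p = 0.44). With IL-6, F11r rose (1.87, adjusted p = 0.0012, and 0.084 with the set fitted) and the other 4 were not called, Icam1 with a log2FC of 1.60 among them (adjusted p = 0.069).

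Of 6 other surface proteins that bind fibronectin, 5 passed the filter. Over all genes tested, 5.02% were called higher with IL-4 and 3.49% with IL-6. With IL-4, Sdc1, Plaur and Sdc4 rose and none fell, and with IL-6 Sdc4 rose, with medians of 1.05 and 0.42 over the 5. Sdc1, a heparan sulfate proteoglycan, was 5.79 to 7.74 FPKM in Control, 37.1 to 52.6 FPKM in IL-4 and 8.87 to 9.69 FPKM in IL-6 libraries (2.69 with IL-4, adjusted p = 1.7e-05). Sdc4, which helps Itga5 and Itgb1 to form adhesions, was 22.6 to 27.4 FPKM in Control, 43.5 to 62.2 FPKM in IL-4 and 63.4 to 66.5 FPKM in IL-6 libraries (1.05, adjusted p = 0.0014, and 1.41, adjusted p = 0.0010). Its call with IL-4 held in 7 of the 9 fits that leave out 1 library. Sdc3, the most abundant of the list, was not called with either cytokine.

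Of 38 proteins that activate integrins or sit at adhesion sites, 32 passed the filter and most were not called, 23 with IL-4 and 30 with IL-6, with medians of -0.35 and 0.13. Over all genes tested, 13.9% were called with IL-4 and 5.38% with IL-6. With IL-4, 4 rose (Lims2, Ptk2, Src and Zyx) and 5 fell, Fyb, Parvg, Ptk2b and Rasgrp2 among them. Lims2 passed the filter only through the IL-4 libraries, at 1.28 to 2.17 FPKM there and at most 0.102 FPKM in the others. Ptk2, the focal adhesion kinase, was 0.528 to 0.614 FPKM in Control, 1.98 to 2.58 FPKM in IL-4 and 0.649 to 0.842 FPKM in IL-6 libraries (1.88 with IL-4, adjusted p = 0.00026). With IL-6, Fgr and Src, kinases of the Src family, rose. Fgr was 9.20 to 10.0 FPKM in Control, 3.75 to 5.82 FPKM in IL-4 and 47.0 to 48.6 FPKM in IL-6 libraries (2.30 with IL-6, adjusted p = 0.00018). Rap1b, the most abundant of the list, lay between 159 and 239.96 FPKM in every library.

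When IL-6 was set against IL-4 directly, 13.6% of the genes tested were higher and 6.82% lower. Of the other integrin chains 5 were higher with IL-6 (Itga1, Itga2, Itga2b, Itga6 and Itga9) and none lower, and of the secreted ligands 5 were higher and 2 lower. Of the surface ligands 3 were higher (F11r, Icam1 and Vcam1) and 2 lower (Cdh1 and Icam2). Among the fibronectin-binding proteins Sdc1 and Plaur were lower, and of the adhesion site proteins 6 were higher and 2 lower. In these counts, Itga1 and Itga2 had passed the filter only through the IL-6 libraries and Lims2 only through the IL-4 libraries. Vcam1 with IL-6, at 11.4, 25.4 and 25.5 FPKM, exceeded its IL-4 level by 3.51 on the log2 scale (adjusted p = 0.0016), in the same direction as its receptor chain Itga4.

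**Figure D5:**
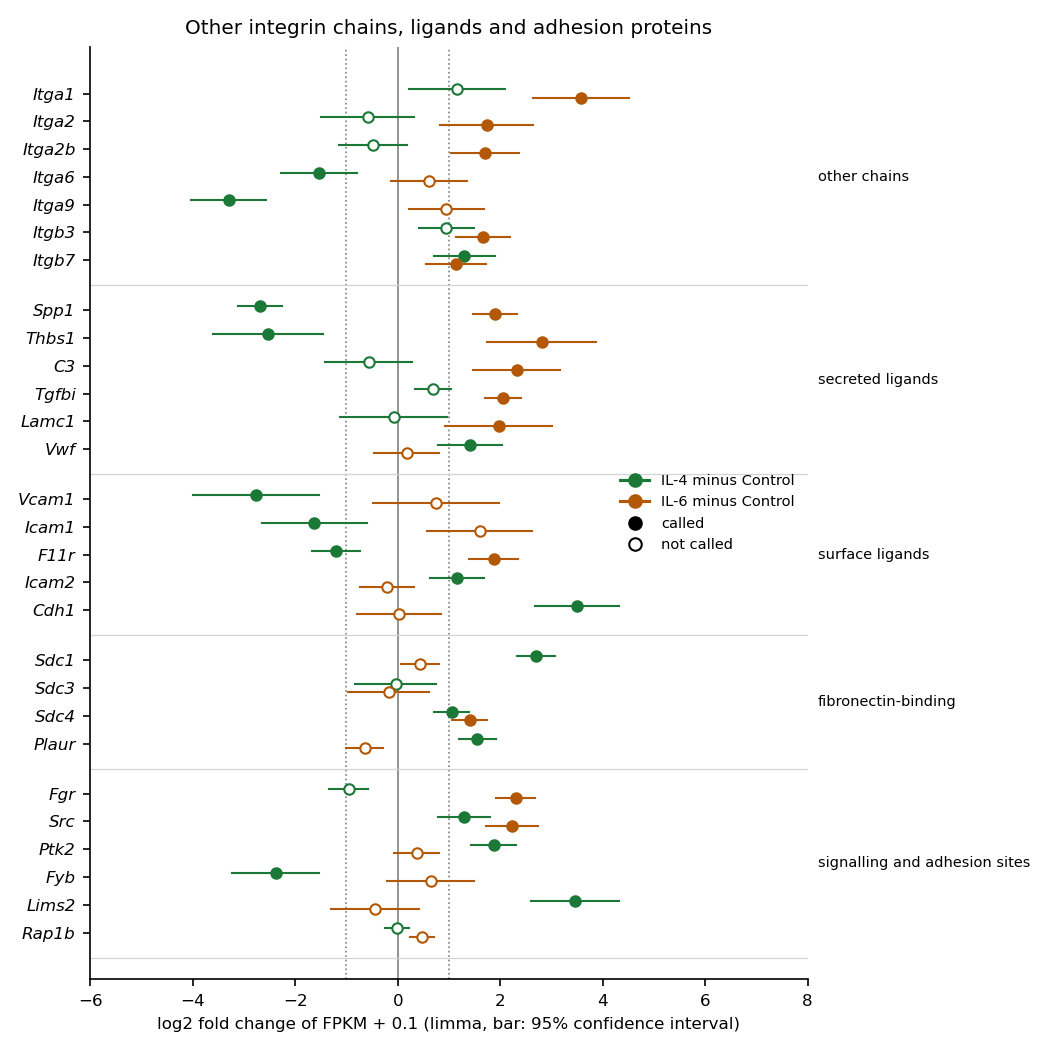
Log2 fold change of FPKM + 0.1 of either cytokine against Control for genes of the 5 lists (limma, points with 95% confidence intervals, filled where called, n = 3 libraries a group). Spp1 and Thbs1 are called in opposite directions with the cytokines (-2.69 and 1.90, -2.53 and 2.81), as is F11r.

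For 3 of the 10 genes, those of the 12824 tested that were most like them across the 9 libraries were found by the root mean square difference of log2 values, each centred on its own mean. For Fn1 they were Tmem26 (0.705), Pdcd1lg2 (0.895) and Chil3 (0.922). Pdcd1lg2, which encodes PD-L2, was 0.243 to 0.381 FPKM in Control, 64.7 to 93.6 FPKM in IL-4 and 0.714 to 1.08 FPKM in IL-6 libraries. For Itgax they were Gm8113 (0.295), Angptl2 (0.301) and Qpct (0.327). For Itgb5 they were Hps1 (0.0525), Lmo2 (0.0665) and Fadd (0.0709), in a pattern of small differences between groups. The root mean square difference is not scaled to a gene's own range, so its size cannot be compared between Fn1, Itgax and Itgb5. These differences describe 9 libraries that also differ in set and depth, and no test was made of them.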

How the data were processed

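RNA-seq libraries of BM-derived Mϕs (3 per group) were analysed from the FPKM values that the authors deposited. The methods and processing notes name STAR 2.4.2a (aligner, GRCm38 build) and Cufflinks 2.2.1 (FPKM), after a stranded mRNA kit. Of the 141433 values of up to 1000 fragments that were checked, 100.0% were whole fragments over the exons within 0.05, which gave each library's fragments. Such steps are those of a read counter, so which program made these FPKM values is uncertain. Of 53379 gene identifiers, 94.8% matched GENCODE M21 with their version, and 2670 others were matched without it, Itga5 and Itgb5 among them. Coordinates are of M21, and promoter windows of RefSeq.

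Values were fitted as log2(FPKM + 0.1) with limma 3.58.1 in R 4.3.3 (all 9 libraries in one model, trend and robust options, Benjamini-Hochberg adjustment over 12824 genes). All adjusted p-values not from permutations are of this test. A fold change on this scale understates that of low genes. Calls needed an adjusted p under 0.05 together with a log2 fold change (log2FC) of 1 or more in either direction, and "rose" and "fell" are used only for called genes. The set of a library was given by 20 or more fragments of 14 intestinal genes. The genes and lists were chosen with earlier results of these data known. Named were the 10 genes, up to 6 called genes of each list with the largest change and its most abundant gene, 3 like genes for each of Fn1, Itgb5 and Itgax, and Socs3, Arg1, Retnla and Chil3 as checks. Zyx, Parvg, Ptk2b and Rasgrp2 are named beyond this rule beside a count, and 1 listed gene that entered the counts is not reported here. The fit was tested on simulated data. The alternatives were other pseudocounts (1 and 0.01), filters, scalings, length and GC trends, replicate number as a block, sets and left-out libraries.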

Additional observations from a re-analysis of the deposited data

How the results depend on the processing

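The number of the 10 genes called with IL-4 against Control was 3 as reported, 5 without IL-4 replicate 3, also when the set was then added as a covariate (chosen after seeing the data), and 6 at an adjusted p under 0.05 alone, and leaving out each library gave 3 to 5. With IL-6 against Control the number was 2 as reported and 0 once the set of libraries was a covariate. Over all genes, the counts reported were 1784 for IL-4, 690 for IL-6 and 2613 between the cytokines. They were 847, 306 and 1219 with a mean of at least 5 FPKM, where fewer genes are tested, and 3186, 1077 and 4375 at an adjusted p under 0.05 alone. With the set as a covariate, 1111 were called with IL-4 and 187 with IL-6, and 372 with IL-6 when IL-4 #3 was also left out. Leaving out each library gave 387 to 1001 for IL-6, with 445 without Control #2, 387 without Control #3, 424 without IL-6 #2 and 408 without IL-6 #3. The cause of these moves was not tested. Of 720 values of single genes among the 10 under the alternatives, 699 kept their side of the call, 16 became called and 5 lost the call. C3 with IL-4, not called, went from -0.56 to 0.21 with the set as a covariate and without IL-4 #3. Libraries of different groups share a replicate number, and whether same-numbered libraries come from the same mouse is not stated. The deviations of same-numbered libraries from their group means correlated by -0.415 to 0.521. A library correlated best with its own number in 11 of 18 comparisons. With that number as replicate block, Itga4 with IL-4 was called at -1.71 (adjusted p = 0.030), Icam1 with IL-6 was called (adjusted p = 0.047), the number of the 10 genes called with IL-4 was 4, and the counts over all genes were 1788, 656 and 2734. The exact permutation test of the ratios cannot go under 0.1 with 3 libraries a group. Median-ratio scaling moved the median of all genes with IL-4 from -0.20 to -0.00, and with it the sign of Itgb1 with IL-4 (0.11) and, between IL-6 and IL-4, of Itgb1 (-0.06) and Itgam (-0.02). Of the 720 values 17 changed sign, each with an adjusted p of 0.19 or more. Depth did not limit the 10 genes, whose values rest on 306 fragments or more.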
